A study of Mus musculus with 10 samples.

Results

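The genes described here encode proteins of the mitochondrial ribosome. They were chosen by symbol alone, as every row of the count table named Mrpl (large subunit) or Mrps (small subunit) followed by digits and an optional final letter, with at least 15 reads over the 10 libraries. The rule found 69 genes among 23930, of which 43 were large subunit genes and 26 small subunit genes. All 69 passed the filter on low counts and were tested among 12719 genes. The libraries came from epididymal white adipose tissue, a visceral fat depot, of male C57BL/6 mice aged 18 weeks. All of the mice had eaten a diet high in sucrose and fat for 8 weeks. The wild-type group (Srgn+/+) and the knockout group (Srgn-/-) had 5 mice each, with 1 library per mouse. Srgn encodes serglycin, a proteoglycan of secretory granules. The comparison addresses the effect of its absence on fat under this diet.

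Mitochondria carry their own ribosomes, which translate the few messenger RNAs encoded in mitochondrial DNA. In mammals these messenger RNAs encode subunits of the respiratory chain and the ATP synthase. The ribosomal RNAs come from mitochondrial DNA, while every ribosomal protein is encoded in the nucleus, made in the cytosol and imported. In white fat cells, mitochondria feed both fatty acid oxidation and the citrate export that supplies fatty acid synthesis.

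None of the 69 genes was past the threshold of an adjusted p of 0.05. The fold changes were small in both directions and the intervals narrow. The log2 fold change of Srgn-/- over Srgn+/+ lay between -0.36 (Mrpl12) and 0.52 (Mrps18a), with a median of -0.0031. For 60 of the 69 genes, the 95% interval lay inside a change of 1.5-fold in either direction. That was so for 54.7% of all genes tested, whose median standard error was larger, 0.165 against 0.107 for the members. The share was 86.1% for the respiratory chain and ATP synthase subunits described below. The smallest adjusted p of a member was 0.262 (Mrpl28).

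The promoters of these genes are shown first, since the choice by symbol did not use their sequence. RefSeq promoter windows (GRCm38.p6, 250 bases before to 50 after the start of transcription) were found for 61 of the 69 genes, 67 windows in all. Windows were searched on both strands for 4 motifs of factors known to act on nuclear genes of mitochondria. These were CCGGAAGT (ETS factors, which include GABP), the NRF1 palindrome (its own reverse complement, in capitals in the first 3 stretches below), AAGATGGCG (YY1) and GGGGCGGGG (SP factors). Of the 61 genes, 28 held at least 1 of the 4 motifs and 4 held at least 2, so most held none. Matches of different motifs overlapped 0 times in the windows of the 61 genes. The ETS motif was in 14.9% of the 67 windows, against 7.37% of the windows of all genes tested and 3.89% of all 32851 windows. The YY1 motif was in 11.9%, against 2.77% and 1.40%. The NRF1 motif was in 4.48%, against 1.85% and 0.971%, and its 3 matches were all in large subunit genes. The SP motif was in 19.4%, against 20.5% and 11.4%. These shares are descriptions with no test.

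The stretches below carry the 3 NRF1 matches, 4 of the ETS matches and 4 of the YY1 matches, 5′ to 3′ on the strand of the gene with the match in capitals. They were picked to show both subunits and the places where matches lie. The 3 NRF1 matches lay upstream of the start, as did 9 of the 10 ETS matches. Of the 8 YY1 matches, 6 lay just after the start, and of these 3 are shown, in runs of 30 bases. The YY1 letters contain ATG, the letters of a start codon. Whether these matches lie at the start of translation was not tested.
Mrpl32, NRF1 motif (GRCm38.p6, chr13:14613095-14613144, minus strand): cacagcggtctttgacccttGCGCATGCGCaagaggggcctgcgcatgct
Mrpl39, NRF1 motif (chr16:84735340-84735389, minus strand): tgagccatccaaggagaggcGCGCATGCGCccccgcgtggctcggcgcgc
Mrpl9, NRF1 motif (chr3:94443288-94443335, plus strand): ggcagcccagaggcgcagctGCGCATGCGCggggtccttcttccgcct
Mrpl3, ETS motif (chr9:105053229-105053267, plus strand): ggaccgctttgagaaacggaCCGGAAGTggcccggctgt
Mrpl51, ETS motif (chr6:125192090-125192137, plus strand): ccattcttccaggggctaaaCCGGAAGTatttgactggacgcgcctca
Mrps22, ETS motif (chr9:98601680-98601710, minus strand): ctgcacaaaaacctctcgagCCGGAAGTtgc
Mrps27, ETS motif on the opposite strand (chr13:99344717-99344764, plus strand): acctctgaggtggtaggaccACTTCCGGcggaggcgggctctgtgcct
Mrpl36, YY1 motif on the opposite strand (chr13:73330958-73331006, plus strand): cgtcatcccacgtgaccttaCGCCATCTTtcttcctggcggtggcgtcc
Mrpl42, YY1 motif (chr10:95501903-95501932, minus strand): agattgaagcAAGATGGCGagcgcgcggtg
Mrps18a, YY1 motif (chr17:46111005-46111034, plus strand): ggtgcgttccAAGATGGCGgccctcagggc
Mrps27, YY1 motif (chr13:99344790-99344819, plus strand): ggtgcgctccAAGATGGCGgctcccatggt

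Members with and without a motif are given side by side as a description. Of the 10 genes with an ETS match, 4 had a higher value in Srgn-/-, with a median log2 fold change of -0.03. Of the 51 without one, 28 were higher, with a median of 0.0219. Of the 8 genes with a YY1 match, 4 were higher, and their median of 0.0121 equalled that of the 53 without one. The 3 genes with an NRF1 match all had a higher value, with a median of 0.117, against 29 of 58 and a median of -0.0011 without one. Of the 11 genes with an SP match, 5 were higher (median -0.0193), and of the 50 without one 27 were (median 0.0228).

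Libraries held 7824764 to 10757779 reads, and the 69 genes took 0.431% to 0.463% of them. Each member had between 21 and 4121 reads in a library, and between 496 (Mrps18c) and 30039 over all 10. Srgn, the deleted gene, had 776 to 1301 reads in Srgn+/+ and 0 to 12 in Srgn-/-, as the labels say (log2 -8.18, edgeR adjusted p = 9.44e-05). It was the sole gene past the threshold, which is 0.00786% of all genes. All 9 adipocyte markers had reads in every library, with a summed level of 31858 to 49025 counts per 1000000 reads (CPM). Markers of epididymis and testis summed to 707, 5889 and 1013 CPM in wild-type 4 and Srgn-/- 3 and 5, and to between 0.372 and 21.9 CPM in the others. Immune cell markers had lower values in Srgn-/- with 0 past the threshold. Of the tested markers, 0 of 11 for macrophages, 0 of 5 for B cells and 0 of 8 for T cells had a higher value in Srgn-/-. Their summed ranges were 1795 to 5807 CPM in Srgn+/+ and 1886 to 3593 CPM in Srgn-/- for macrophages. For B cells they were 32.0 to 145 and 18.2 to 29.4 CPM, and for T cells 25.1 to 71.5 and 16.8 to 24.4 CPM. Markers of thermogenic adipocytes, which are rich in mitochondria, had higher values for 6 of 6 tested (median log2 0.46), with summed ranges of 47.5 to 108 and 72.2 to 200.3 CPM. Ucp1 of that list, at 0.0987 to 0.977 CPM, was too low to be tested, and Cox8b alone ran from 29.5 to 160 CPM. Skeletal muscle markers had higher values for 2 of 2 tested, with 14.1 to 29.8 and 19.5 to 53.9 CPM. Srgn-/- 4 was the highest library for both the thermogenic and the muscle sum. Endothelial markers had higher values for 5 of 6 (median log2 0.33), with 527 to 751 and 618 to 901 CPM. No marker of these lists passed. In such bulk samples fewer cells of a type and less RNA per cell cannot be told apart. The part of other cell types in the values of the mitoribosomal genes was not tested.

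At an unadjusted p under 0.05 there were 11 of the 69 genes, 15.9%, against 12.8% of all genes tested. Of the 11, 6 had a higher value (8.70% of members, against 6.77% of all genes) and 5 a lower one (7.25%, against 6.06%). These shares are close to the background, so the count is not a result about the mitochondrial ribosome. DESeq2 put 0 of the 69 past its adjusted threshold, against 1.78% of all genes, and 12 at an unadjusted p under 0.05, against 14.0%. Limma-voom put 0 past it, against 0.0786%, and 13 at an unadjusted p under 0.05, against 20.3%. The groups did not overlap for 1 member, 1.45%, against 2.78% of all genes. That member was higher in Srgn-/-, against 1.39% of all genes, and 0 members were lower, against 1.38%. When the 3 libraries highest in epididymis markers were left out, 2 members (2.90%) had an unadjusted p under 0.05, against 4.17% of all genes, and that fit also has fewer animals.

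**Figure D1:**
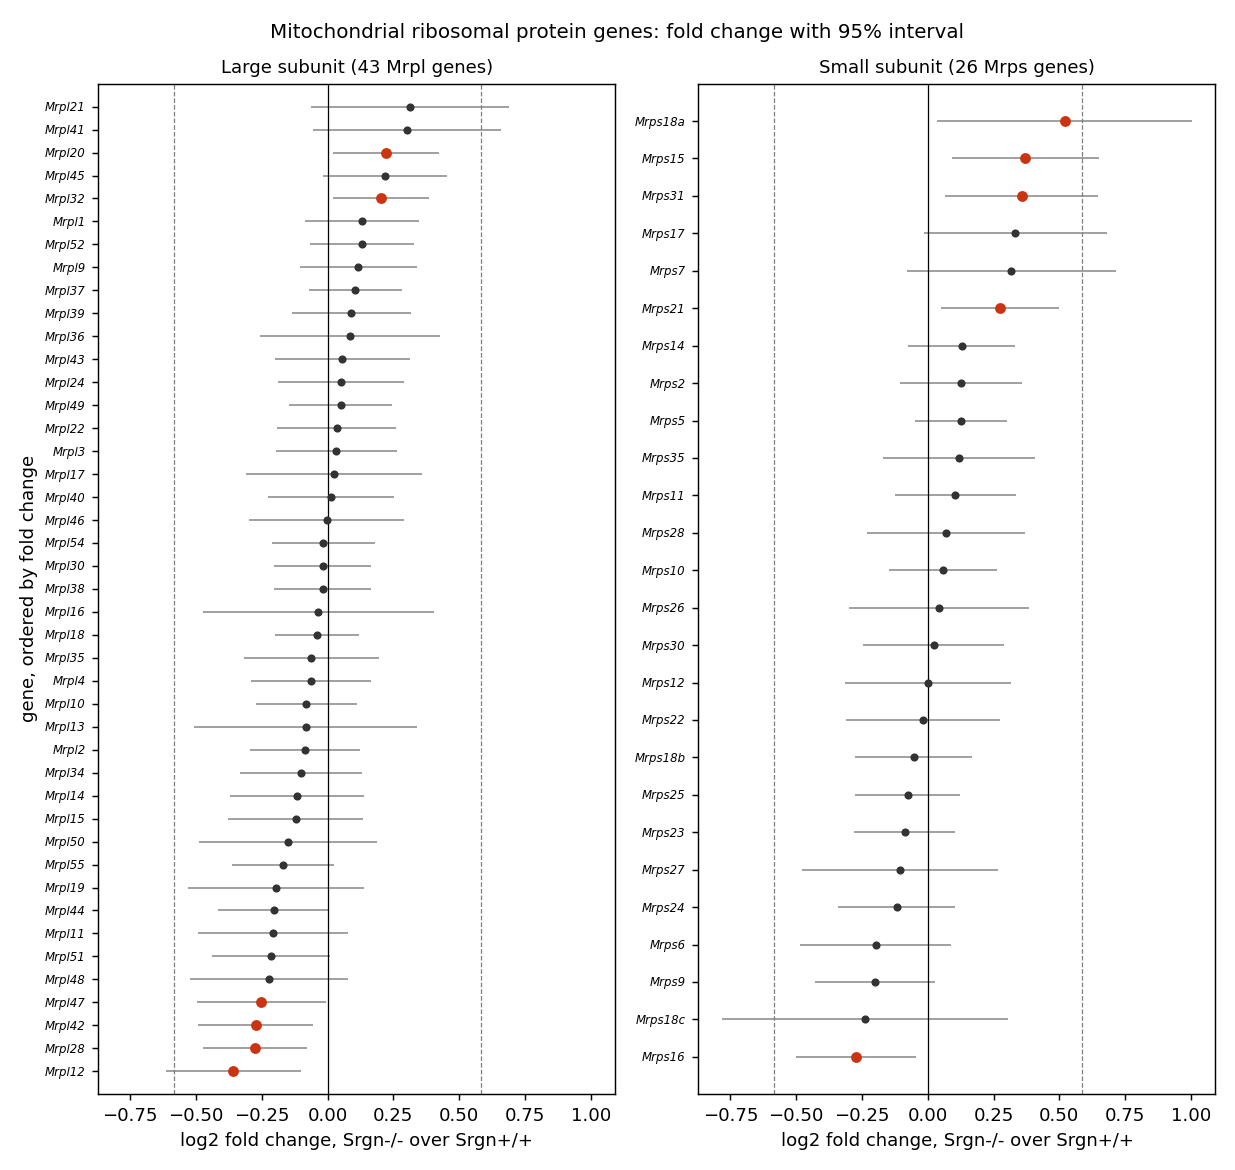
Log2 fold change of each gene (Srgn-/- over Srgn+/+, 5 libraries each) with its 95% interval, large subunit on the left and small subunit on the right. Red points have an unadjusted p under 0.05, dashed lines mark a change of 1.5-fold, and most intervals cross 0 and lie between the dashed lines.

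The large subunit joins amino acids into the protein chain. Of its 43 genes, 18 had a higher value in Srgn-/-, 41.9%, and the median of their log2 fold changes was -0.02. Over all genes tested the median was -0.0014 and the share 49.7%. The large subunit genes with the smallest p among lower values were Mrpl28, Mrpl12, Mrpl42, Mrpl47 and Mrpl44. Those among higher values were Mrpl32, Mrpl20, Mrpl45, Mrpl41 and Mrpl21. None passed, with edgeR adjusted p between 0.262 and 0.470.

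Mrpl28 is a large subunit protein with a bacterial counterpart. Its normalized level was 62.8, 62.2, 53.4, 68.4 and 61.8 CPM in wild-type 1 to 5 and 49.7, 47.2, 52.3, 57.2 and 48.5 CPM in Srgn-/- 1 to 5. All Srgn-/- libraries except the fourth lay below every wild-type library, and the fourth lay above wild-type 3, so the groups overlapped. The means were 61.7 ± 5.37 and 51.0 ± 3.93 CPM (SD, n = 5; log2 -0.28, SE 0.0903, edgeR adjusted p = 0.262).

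Mrpl12 forms the flexible stalk that recruits translation factors, and also binds the mitochondrial RNA polymerase. It had 170, 173, 144, 178 and 158 CPM in wild-type 1 to 5 and 125, 101, 116, 153 and 149 CPM in Srgn-/- 1 to 5. Wild-type 3 lay below Srgn-/- 4 and 5, and the other wild-type libraries lay above all Srgn-/- libraries. The log2 fold change was -0.36 (SE 0.118; 95% interval -0.62 to -0.10; edgeR adjusted p = 0.263). Mrpl10 and Mrpl11, which hold the stalk on the ribosome, also had lower values without passing, with log2 -0.08 (SE 0.0882) and -0.21 (SE 0.131). For Mrpl11, wild-type 5 had 37.4 CPM and the other wild-type libraries 54.5 to 63.6 CPM. The 5 Srgn-/- libraries lay between, at 45.8 to 50.9 CPM, and without wild-type 5 the log2 was -0.32.

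Mrpl42 is a mitochondria-specific protein with no bacterial counterpart. It had 89.5, 89.6, 87.0, 106 and 75.8 CPM in wild-type 1 to 5 and 76.8, 68.1, 66.4, 79.6 and 79.7 CPM in Srgn-/- 1 to 5. Only wild-type 5 lay within the range of the Srgn-/- libraries. The log2 fold change was -0.27 (SE 0.1001; edgeR adjusted p = 0.303). Mrpl44, related to ribonuclease III enzymes, had 44.6 ± 3.41 and 38.7 ± 3.98 CPM (log2 -0.20). Mrpl47, at the rim of the tunnel through which the new chain leaves, had 39.7 ± 4.10 and 33.4 ± 4.48 CPM (log2 -0.25).

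Mrpl32 matures by cleavage in the mitochondrial matrix, by the m-AAA protease, before it joins the ribosome. It had 45.8, 48.5, 52.4, 52.7 and 55.2 CPM in wild-type 1 to 5 and 61.4, 53.1, 59.1, 62.1 and 57.3 CPM in Srgn-/- 1 to 5. Wild-type 5 and Srgn-/- 2 were the pair that overlapped. Its log2 fold change was 0.20 (SE 0.0837; edgeR adjusted p = 0.353).

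Mrpl20 had 44.4, 46.4, 55.3, 50.6 and 47.0 CPM in wild-type 1 to 5 and 53.4, 54.4, 59.2, 53.1 and 64.4 CPM in Srgn-/- 1 to 5. Wild-type 3 lay above 3 Srgn-/- libraries, and all other wild-type libraries lay below every Srgn-/- library (log2 0.22, SE 0.0922, edgeR adjusted p = 0.353). Mrpl45, which tethers the ribosome to the inner membrane near the exit of the tunnel, had 44.9, 33.9, 37.0, 39.9 and 31.7 CPM in wild-type 1 to 5. It had 39.7, 41.7, 43.5, 49.4 and 44.2 CPM in Srgn-/- 1 to 5, with wild-type 1 above all but Srgn-/- 4 and wild-type 4 above Srgn-/- 1 (log2 0.22, SE 0.108, edgeR adjusted p = 0.415). Mrpl41 and Mrpl21 had log2 fold changes of 0.30 and 0.31 with wider errors (SE 0.164 and 0.173). Wild-type 5 was the lowest library for both, at 18.2 and 13.7 CPM, and without it the log2 values were 0.22 and 0.18. Without wild-type 1 and 5 they were 0.12 and 0.09.

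**Figure D2:**
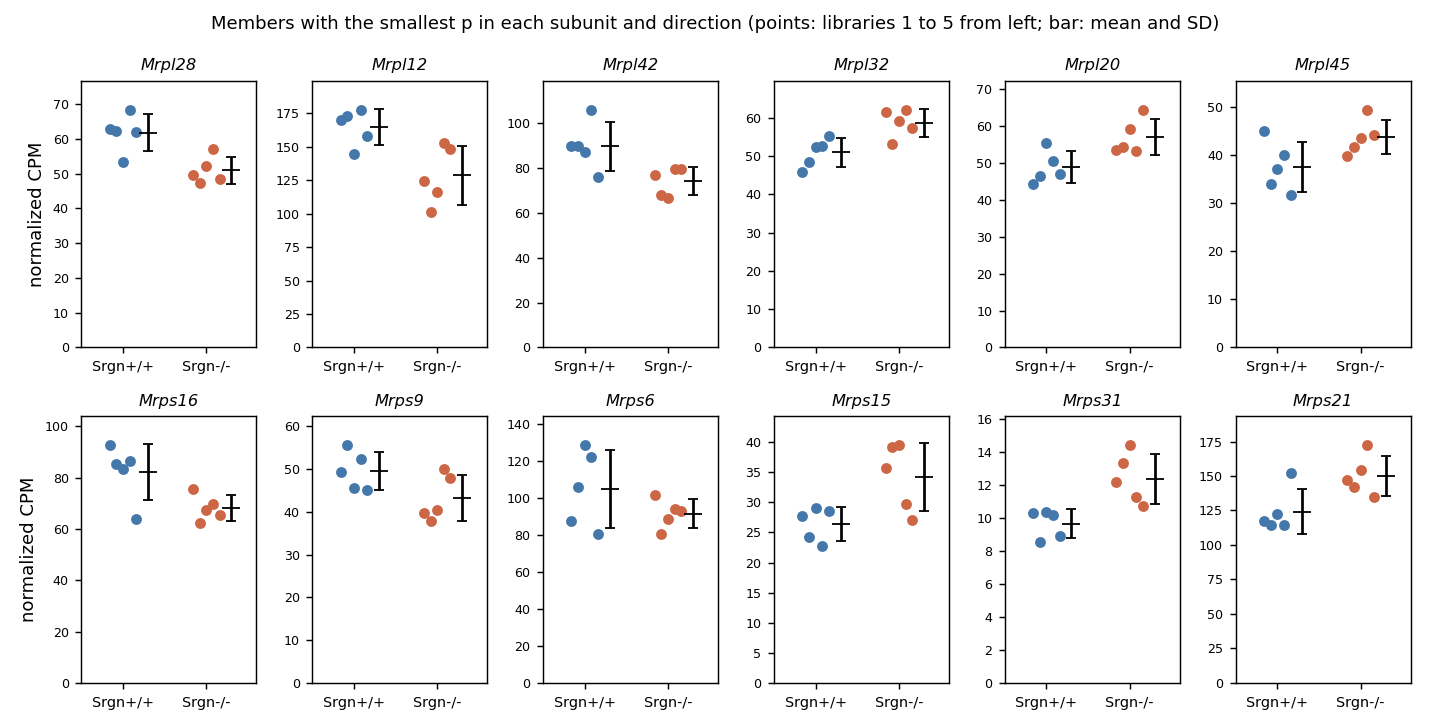
Normalized CPM by library (points, libraries 1 to 5 from left) with mean and SD beside them, for the 3 genes with the smallest p in each subunit and direction. The groups overlap in every panel except Mrps31.

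The small subunit reads the messenger RNA. Of its 26 genes, 16 had a higher value in Srgn-/-, 61.5%, and the median of their log2 fold changes was 0.05. The genes with the smallest p among higher values were Mrps15, Mrps31, Mrps21, Mrps18a and Mrps17. Those among lower values were Mrps16, Mrps9, Mrps6, Mrps24 and Mrps23. None passed, with edgeR adjusted p between 0.279 and 0.696.

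Mrps15 is a small subunit protein with a bacterial counterpart. It had 27.7, 24.2, 29.1, 22.8 and 28.5 CPM in wild-type 1 to 5 and 35.7, 39.2, 39.5, 29.7 and 27.0 CPM in Srgn-/- 1 to 5. Srgn-/- 1 to 4 lay above every wild-type library, and Srgn-/- 5 lay within the wild-type range. The log2 fold change was 0.37 (SE 0.128; 95% interval 0.09 to 0.65; edgeR adjusted p = 0.279).

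Mrps31 is specific to the mitochondrial ribosome. It had 10.3, 8.50, 10.4, 10.2 and 8.89 CPM in wild-type 1 to 5 and 12.2, 13.3, 14.4, 11.2 and 10.7 CPM in Srgn-/- 1 to 5. It was the single member whose groups did not overlap, with Srgn-/- 5 close above wild-type 3. Both levels rest on few reads, 67 to 124 in a library (log2 0.36, SE 0.134, edgeR adjusted p = 0.313).

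Mrps21 had 118, 114, 122, 115 and 152 CPM in wild-type 1 to 5 and 147, 142, 155, 172 and 135 CPM in Srgn-/- 1 to 5. Wild-type 5 stood apart from its group and lay above 3 Srgn-/- libraries. The other wild-type libraries lay below every Srgn-/- library (log2 0.27, SE 0.103, edgeR adjusted p = 0.315).

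Mrps16, a conserved core protein that is mutated in a human mitochondrial disease, was the lower-valued small subunit gene with the smallest p. It had 92.7, 85.1, 83.1, 86.4 and 64.0 CPM in wild-type 1 to 5 and 75.7, 62.4, 67.4, 69.8 and 65.3 CPM in Srgn-/- 1 to 5. Only wild-type 5 lay within the range of the Srgn-/- libraries (log2 -0.27, SE 0.104, edgeR adjusted p = 0.323). Mrps9 had 49.4, 55.6, 45.5, 52.3 and 45.0 CPM in wild-type and 39.8, 37.7, 40.4, 50.01 and 47.9 CPM in Srgn-/- (log2 -0.20, edgeR adjusted p = 0.444). Srgn-/- 1 to 3 lay below all wild-type libraries, and Srgn-/- 4 and 5 among them. Mrps6 had 87.7, 106, 129, 122 and 80.6 CPM in wild-type and 102, 80.5, 88.9, 94.0 and 92.9 CPM in Srgn-/-, and the groups overlapped (log2 -0.20, edgeR adjusted p = 0.548).

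Among the small subunit genes named for their roles, Mrps12, a protein of the decoding centre, had 63.9 ± 13.7 and 63.9 ± 8.60 CPM (log2 0.0010). The 95% interval of its log2 fold change ran from -0.31 to 0.32. Mrps7 had 6.69 ± 1.25 and 8.33 ± 1.32 CPM (log2 0.32, SE 0.182), Mrps2 had 29.6 ± 3.09 and 32.3 ± 3.31 CPM (log2 0.13), and Mrps22 had 21.5 ± 2.56 and 21.2 ± 3.5 CPM. For Mrps22 and Mrps12 the sign of the fold change depended on the scaling. Mrpl3 of the large subunit had 31.2 ± 3.21 and 32.0 ± 3.003 CPM (log2 0.03).

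The 3 related genes Mrps18a, Mrps18b and Mrps18c encode relatives of a single bacterial ribosomal protein, though by subunit name Mrps18a and Mrps18b are classed below as specific to mitochondria. Mrps18a had 7.12, 7.74, 10.3, 11.8 and 4.51 CPM in wild-type 1 to 5 and 10.3, 12.5, 13.8, 11.1 and 11.8 CPM in Srgn-/- 1 to 5. Wild-type 4 lay within the range of the Srgn-/- libraries, and the other wild-type libraries lay below all of them. Its log2 fold change of 0.52 was the largest of the 69 and also among the least precise (SE 0.223). The 95% interval ran from 0.036 to 1.004 (edgeR adjusted p = 0.364). The lowest value, in wild-type 5, came from 34 reads. Leaving out 1 library moved the log2 of Mrps18a between 0.37 (wild-type 5 dropped) and 0.68 (wild-type 4 dropped). Dropping both wild-type 1 and 5 gave 0.27. Mrps18b had 102 ± 10.9 and 98.3 ± 10.3 CPM (log2 -0.05), and Mrps18c had 5.76 ± 1.78 and 4.89 ± 0.706 CPM (log2 -0.24, SE 0.2501). For Mrps18c the log2 was -0.41 without wild-type 5 and -0.13 without wild-type 4. How specific each amplicon is among the related genes was not tested.

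In the mammalian structure the proteins of Mrps18a and Mrps30 sit in the large subunit, whatever their symbols say. Mrps30 had 36.8 ± 5.42 and 37.4 ± 4.53 CPM (log2 0.02). With both moved, the median was -0.02 over 45 large subunit genes, of which 20 had higher values, and 0.05 over 24 small subunit genes, of which 14 had.

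The classes within the ribosome can be set side by side. Among the 43 proteins named for a bacterial counterpart 21 had higher values (median log2 -0.02), and among the 26 named as specific to mitochondria 13 had (median log2 0.0045). The 7 genes of the central protuberance, the crown of the large subunit, had a median of -0.02, with 2 higher and none at an unadjusted p under 0.05. Among these were Mrpl18, the most precise of all 69 (113 ± 7.57 and 110.0 ± 1.58 CPM, log2 -0.04, SE 0.0731), and Mrpl48 (log2 -0.22, SE 0.138). The 5 genes at the rim of the exit tunnel had a median of 0.03, with 4 higher. Mrpl18, Mrpl48 and the 2 genes given next, Mrpl16 and Mrpl17, were chosen after their values were seen. Mrpl16 and Mrpl17 were low in wild-type 1, at 32.6 and 179 CPM, against 65.0 to 74.6 and 277 to 323 CPM in wild-type 2 to 5.

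**Figure D3:**
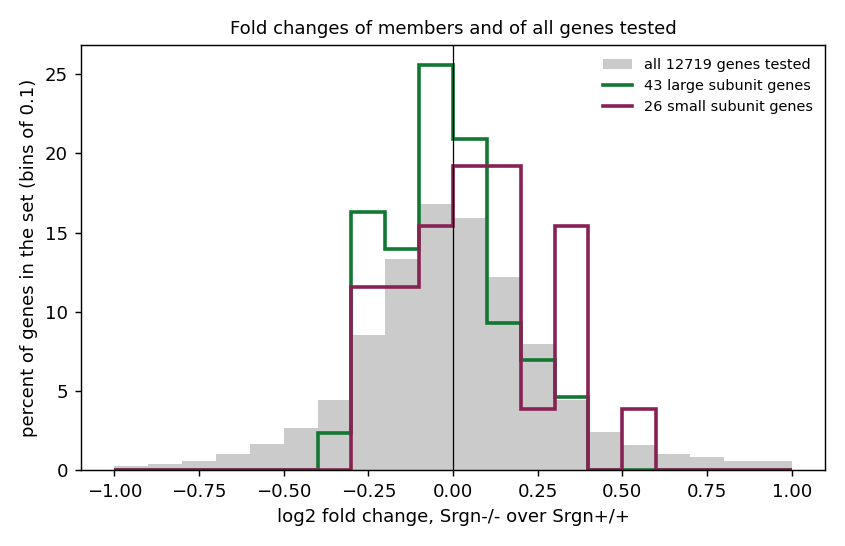
Share of genes by log2 fold change (Srgn-/- over Srgn+/+) in bins of 0.1, for all 12719 genes tested (grey), 43 large subunit genes (green) and 26 small subunit genes (purple). Of the 69 members 1 lies beyond 0.4 in either direction, against 2086 of the 12719 genes tested. The median standard error was 0.107 for the members and larger, 0.165, for all genes tested. The range plotted ends at 1 in either direction, and 362 of all genes lie outside it.

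The amplicons of each subunit can be summed by library. Amplicons with high counts weigh most in these sums. Among them are Mrpl51 (means of 352 CPM in Srgn+/+ and 303 CPM in Srgn-/-) and Mrpl17 (276 and 280 CPM). The sums and their ratio therefore do not measure the subunits as a whole. The large subunit summed to 3098, 3312, 3111, 3509 and 3283 CPM in wild-type 1 to 5 and to 3198, 2861, 3056, 3311 and 3247 CPM in Srgn-/- 1 to 5. The small subunit summed to 1237, 1279, 1307, 1340 and 1270 CPM and to 1364, 1219, 1279, 1359 and 1306 CPM. In both subunits Srgn-/- 2 was the lowest Srgn-/- library, and the groups overlapped. The ratio of small to large was 0.399, 0.386, 0.420, 0.382 and 0.387 in wild-type and 0.426, 0.426, 0.418, 0.410 and 0.402 in Srgn-/-. Only wild-type 3 overlapped with the Srgn-/- libraries. The means of the ratio were 0.395 ± 0.0156 and 0.417 ± 0.0103 (SD, n = 5), a description with no test.

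**Figure D4:**
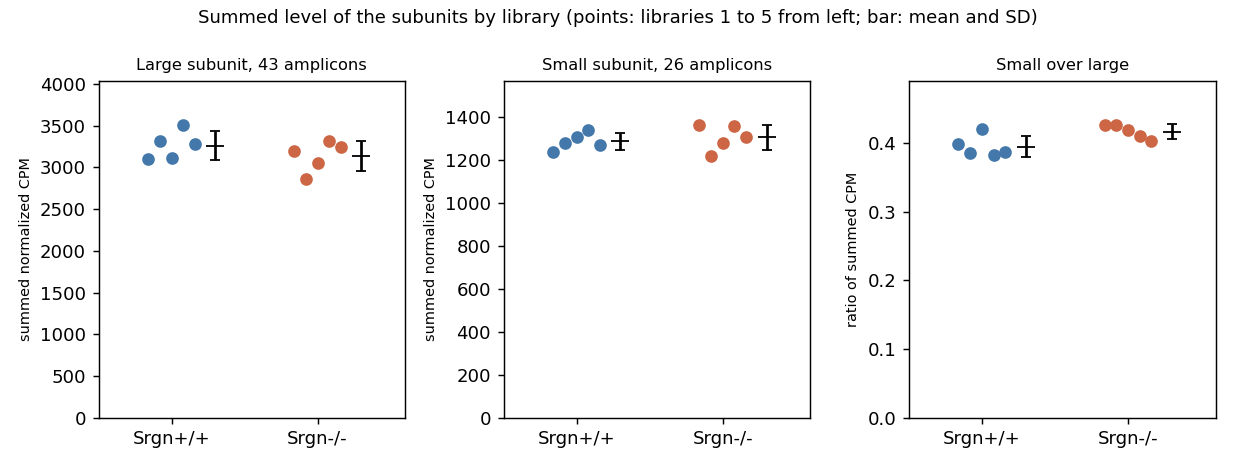
Summed normalized CPM of the large (43 amplicons) and the small subunit (26 amplicons), and their ratio, by library (points, libraries 1 to 5 from left) with mean and SD. The sums overlap between the groups, and in the ratio 4 of the 5 wild-type libraries lie below all Srgn-/- libraries.

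Members varied among themselves from library to library. Within the wild-type group, library 5 held the highest value for 19 members and the lowest for 21, and library 1 for 9 and 22. Wild-type 4 was the highest for 23 members and the lowest for 5. In the Srgn-/- group, library 2 was the lowest for 28 members and the highest for 4, and library 1 the highest for 22. Over all genes with reads in every library, wild-type 5 was the highest for 23.5% and the lowest for 21.9%, against 27.5% and 30.4% of the members. Wild-type 4 was the highest for 15.5% of all such genes, against 33.3% of the members, and wild-type 1 for 29.8%, against 13.0%. Srgn-/- 2 was the lowest for 23.2%, against 40.6%, and the highest for 23.0%, against 5.80%. Wild-type 4 was the lowest for 15.3%, against 7.25%. For wild-type 1 as the lowest library the shares were alike, 31.9% of all such genes and 31.9% of the members. Srgn-/- 1 was the highest for 26.7%, against 31.9%. Wild-type 5 had the highest macrophage sum of all libraries (5807 CPM) and the fewest reads. The part of either in these values was not tested.

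**Figure D5:**
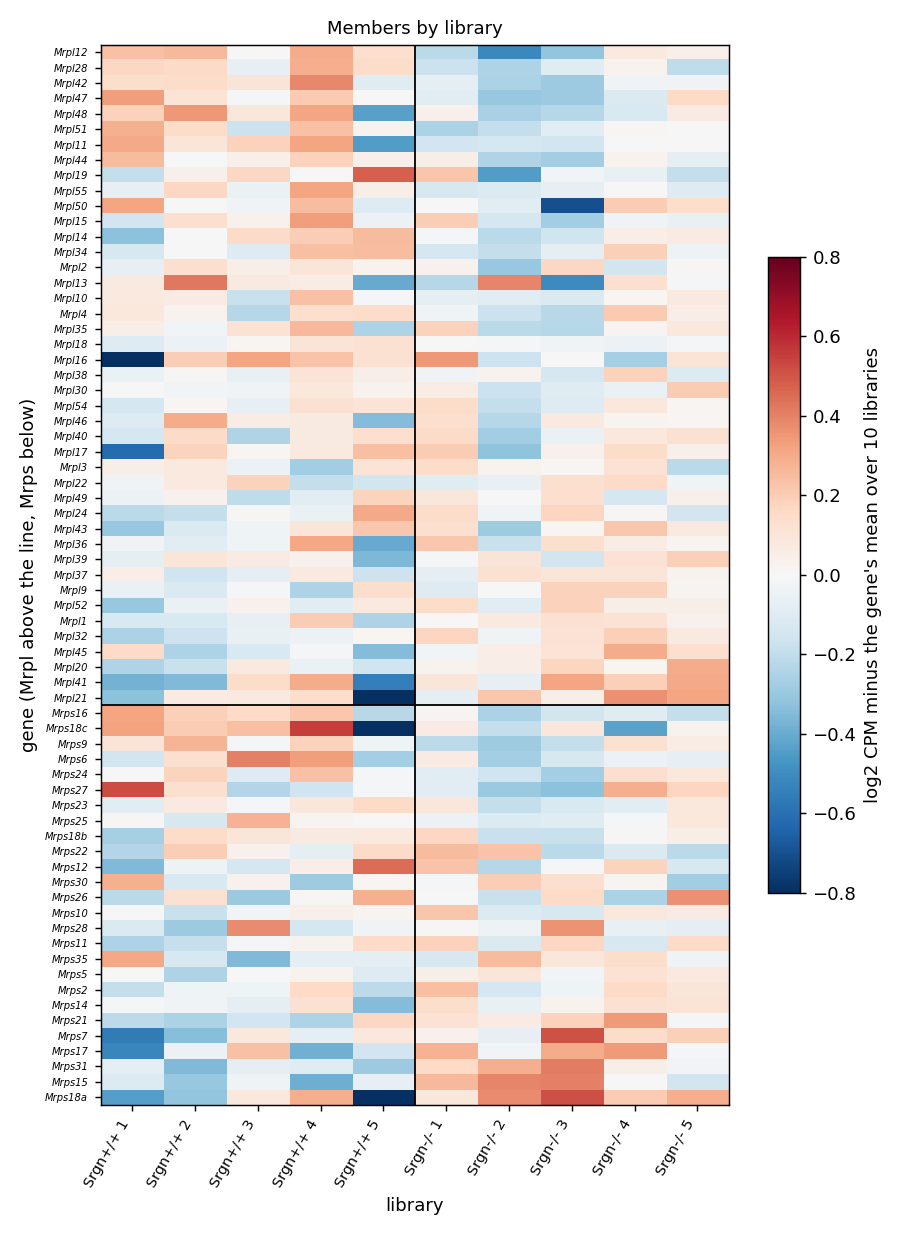
Log2 CPM of each of the 69 genes minus its mean over the 10 libraries, ordered by fold change within the large subunit (above the line) and the small subunit (below), with colours limited to 0.8 in either direction. Wild-type 5 shows low Mrpl21 and Mrps18c and high Mrpl19 and Mrps12, and wild-type 1 shows low Mrpl16 and Mrpl17.

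Other parts of mitochondrial translation also had no gene past the threshold. Some mitoribosomal proteins carry other symbols, and 5 of these were tested. Of the 5, 2 (40%, against 12.8% of all genes) had an unadjusted p under 0.05. The groups did not overlap for 1 of them, Chchd1, against 2.78% of all genes. Chchd1, a small subunit protein, had 64.4 ± 4.87 and 49.0 ± 1.52 CPM, with every Srgn-/- library below every wild-type library (log2 -0.39, edgeR adjusted p = 0.191). Ptcd3, a small subunit protein that binds RNA, had 23.7 ± 2.87 and 29.4 ± 3.03 CPM (log2 0.31, edgeR adjusted p = 0.303). Dap3 (log2 0.09), Ict1 (log2 0.05) and Aurkaip1 (log2 -0.16) made up the rest.

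Of 23 tested genes of ribosome assembly and ribosomal RNA modification, 0 passed, 6 had higher values and 7 (30.4%, against 12.8% of all genes) had an unadjusted p under 0.05, 5 of them lower. Their median log2 fold change was -0.13. Mrm2, a methyltransferase of the large ribosomal RNA, had 13.4 ± 2.89 and 8.44 ± 0.673 CPM (log2 -0.67, edgeR adjusted p = 0.191). The groups did not overlap for 2 of the 23, against 2.78% of all genes. These were Mrm2 and Mrm1, a related methyltransferase (log2 -0.42). The pseudouridine enzyme Rpusd4 had 15.3 ± 2.95 and 11.1 ± 2.01 CPM (log2 -0.45), and the assembly factor Mpv17l2 120 ± 9.20 and 140 ± 6.76 CPM (log2 0.22).

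Of 14 tested translation factors, 0 passed, 12 had higher values, and the median was 0.14. For 4 of them (28.6%, against 12.8% of all genes) the unadjusted p was under 0.05. The elongation factor Gfm1 had 31.5 ± 3.67 and 39.1 ± 0.994 CPM (log2 0.31, edgeR adjusted p = 0.247). Oxa1l, which inserts new chains into the inner membrane, had 99.95 ± 4.32 and 116 ± 7.84 CPM (log2 0.22, edgeR adjusted p = 0.284). The groups did not overlap for 3 of the 14, Gfm1, Oxa1l and Mtrf1, of the release factor family (5.56 ± 3.26 and 13.5 ± 1.07 CPM, log2 1.26, SE 0.548). Over all genes tested 2.78% did not overlap. Mrm1 and Mtrf1 are named because their groups did not overlap. Taco1, an activator of translation of a cytochrome oxidase subunit, had 40.0 ± 3.13 and 31.1 ± 3.54 CPM (log2 -0.36, edgeR adjusted p = 0.222).

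Of 20 tested genes that charge mitochondrial transfer RNAs, 0 passed, 13 had higher values, and the median was 0.11. An unadjusted p under 0.05 was found for 4 (20%, against 12.8% of all genes). The groups did not overlap for 1 of the 20, Gatc, against 2.78% of all genes. Gatc, a subunit of the enzyme that makes glutamine-charged transfer RNA, had 19.2 ± 1.08 and 24.0 ± 1.57 CPM (log2 0.33, edgeR adjusted p = 0.225). Fars2 and Ears2, which load phenylalanine and glutamate, had log2 0.24 and -0.30. Of 15 tested genes of mitochondrial DNA transcription, replication and RNA processing, 0 passed and 9 had higher values, with a median of 0.12. The DNA polymerase Polg had log2 -0.24, the transfer RNA methyltransferase Trmt10c 0.23 and the single-strand DNA binding protein Ssbp1 0.15.

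The 10 regulators of mitochondrial biogenesis had a median of -0.02, with 5 higher and 0 past the threshold. Among them were factors of the ETS, NRF1 and YY1 motifs above. Gabpa had 23.0 ± 2.54 and 23.7 ± 1.87 CPM, Nrf1 20.2 ± 4.36 and 19.0 ± 2.59 CPM, and Yy1 95.5 ± 6.61 and 87.5 ± 10.9 CPM. The nuclear receptor Esrra had log2 -0.19 and the coactivator Ppargc1a log2 0.37 (SE 0.275). The 72 tested subunits of the respiratory chain and ATP synthase had a median of -0.01, with 35 higher and 0 past the threshold. Of these, 62 (86.1%, against 54.7% of all genes) had a 95% interval inside a change of 1.5-fold. Their median standard error was 0.103, against 0.165 for all genes. An unadjusted p under 0.05 was found for 11, 15.3%, against 12.8% of all genes. For 3 of the 72, Atp5c1 and Ndufb10 among them, the groups did not overlap, against 2.78% of all genes. Those with the smallest p were Uqcr10 (log2 -0.47), Atp5c1 (log2 0.31) and Ndufb10 (log2 0.28). The count table held 24 genes taken by symbol as cytosolic ribosomal proteins. The 20 of them that were tested had a median of -0.15, with 6 higher and 0 past the threshold. For 4 (20%, against 12.8% of all genes), all lower, the unadjusted p was under 0.05. The groups did not overlap for 1 of the 20, Rpl7l1, against 2.78% of all genes. Among the 20, those with the smallest p included Rpl7l1 (log2 -0.34) and Rps9 (log2 -0.31). No test of the differences between these lists was made.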

How the data were processed

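Total RNA from the epididymal fat of 10 mice was amplified as 1 short target for each gene (Ion AmpliSeq mouse transcriptome kit) and sequenced on an Ion S5 XL, per the labels' protocols. The authors deposited raw counts, whole-number reads for 23930 amplicons. The submitters' processing notes name build mm9. For the aligner and the counter, no name is given in the sources used here. Of the files, the authors' deposited normalized table was not used. Counts from single amplicons carry amplification efficiency in place of length, so levels of single genes were not compared with each other. The subunit sums and their ratio do combine amplicons and carry this limit. The reads are PCR products without molecular identifiers.

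Counts were tested in R 4.3.3 with the quasi-likelihood test of edgeR 4.0.16 (robust, two-sided, no covariate), after the filterByExpr filter (minimum count 10, minimum total 15), which left 12719 genes and removed 11211. Scaling used TMM factors (edgeR's trimmed mean method). P-values were Benjamini-Hochberg adjusted over all genes tested, with a threshold of 0.05. Standard errors (SE) and 95% intervals come from the fitted information matrix and the moderated dispersion. Alternatives were other scalings, no filter, DESeq2 1.42.0, limma-voom with quality weights (limma 3.58.1), leaving out libraries, and another assignment of members to subunits. The members, the lists and the libraries named for epididymis RNA were chosen with earlier results of these data known. Named members are Srgn, the 5 with the smallest p in each subunit and direction, and a set with known roles. The first 3 of the 5 are given by library. Each list names up to 3 genes with the smallest p, and 1 of these is not reported here. Other members are named as examples chosen after their values were seen. The classes by origin and by place in the ribosome were drawn up from the known subunit names after the values were seen. The list of cytosolic ribosomal proteins was drawn by symbol. Symbols of the Rps6k kinases and Rps19bp1 were left out of it, and the other symbols, Rpl7l1 included, were kept. Older symbols were matched through RefSeq synonyms of assembly GRCm38. Promoters came from RefSeq (GRCm38.p6), another build than that of the files.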

Additional observations from a re-analysis of the deposited data

Results flagged for a closer look

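In 2 of 64 groups of 5 libraries checked for the named members and the subunit sums, 1 library stood far from the other 4. Chance flags about 1 in 20 such groups. For Mrps21, wild-type 5 stood at 152 CPM, above the range of 114 to 122 CPM of its group. For Mrps18b, wild-type 1 stood at 82.9 CPM, below the range of 105 to 110.4 CPM of its group. Over all 69 members, 5 of 138 groups had such a library.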

How the results depend on the processing

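No member passed the adjusted threshold in any of the 18 alternatives, leave-one-out fits and DESeq2 included, and the smallest adjusted p of a member ranged from 0.117 (DESeq2) to 0.999. No paired analysis was possible because the replicate numbers were given in accession order and pair no animals. With 1 library left out, 5 to 14 members had an unadjusted p under 0.05 (5 without wild-type 2, 7.25% against 9.42% of all genes; 6 without Srgn-/- 3, 8.70% in both; 14 without wild-type 3, 20.3% against 12.7%). When the 3 libraries highest in epididymis markers were left out there were 2, and the fit had 7 animals. Members whose groups do not overlap numbered 2 with upper-quartile factors (2.90% against 2.82% of all genes). Total reads alone gave 3 (4.35% against 2.77%), and leaving out the epididymis libraries gave 6 (8.70% against 5.76%). Dropping wild-type 1 and 5, a setting picked once the values were known, gave 9 such members (13.0% against 9.95%). They numbered 1 to 8 with 1 library left out (8 without wild-type 5, 11.6% against 4.84%, and 6 without wild-type 3, 8.70% against 5.16%), and fewer libraries overlap less by construction. The median of the large subunit was -0.052 to 0.0073 and that of the small subunit 0.020 to 0.079 with 1 library left out. With total reads alone the small subunit median was 0.10 and that of the large subunit 0.03, and the median of all genes moved to 0.05. With upper-quartile factors the large subunit median was 0.01, so that its sign depends on the scaling, and 23 of its 43 members were higher. In that fit the median of all genes moved to 0.03, above that of the large subunit. Large subunit members with higher values numbered 15 to 22, and small subunit members 14 to 17, with 1 library left out. Of the 29 named members, 25 kept their direction in all alternatives. Mrps22 was 0.014 with upper-quartile factors, 0.035 with total reads alone and 0.086 without the epididymis libraries (-0.091 to 0.030 with 1 library left out). Mrps12 was -0.0022 with RLE factors, -0.0089 with no filter, -0.0018 in DESeq2 and -0.033 in limma-voom (-0.079 to 0.13). Mrpl3 ran from -0.025 to 0.088 and Mrps30 from -0.040 to 0.10 with 1 library left out. The cause was not tested. Depth limits Mrps18c, Mrps7, Mrpl36 and Mrps18a, the members with the fewest reads, with as few as 21 reads in a library.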
